A study of Mus musculus with 16 samples.

Results

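Inhba, Nptx2, Hectd2 and Slc27a3 are 4 genes that were picked because they were higher in the dentate gyrus of mice that had run than in that of sedentary mice. Each has 1 entry per library among the 24421 gene names of the deposited tables, so that 4 of 24421 names are described here, in all 16 libraries. The values that chose them are the running comparisons themselves, and these are therefore given as a description without a test.

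All mice were male C57BL/6 of one year of age. Wild-type mice (p16 WT, p16Ink4a +/+) and homozygous knockout mice (p16 KO, p16Ink4a −/−) were either sedentary (CTL) or had a running wheel for 12 days (RUN). The wild-type groups were p16 WT CTL (replicates 1 to 4) and p16 WT RUN (replicates 9 to 12), and the knockout groups p16 KO CTL (replicates 5 to 8) and p16 KO RUN (replicates 13 to 16), with 4 libraries each from 8 mice pooled by 2. The knockout is a null allele in every cell, made in FVB mice and crossed into C57BL/6, and it spares p19Arf, which is read from the same Cdkn2a locus. The entry of Cdkn2a lay between 0 and 0.586 TPM in p16 WT CTL and between 0 and 0.344 TPM in p16 KO CTL, a range too low to tell the genotypes apart. Because a library holds 2 mice, the variation from animal to animal stays unknown, and the p-values below measure the spread between libraries.

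The dentate gyrus is the entry station of the hippocampus, and its main cell is the granule neuron. Voluntary running is known to raise the activity of these neurons and the birth of new ones. Inhba encodes the inhibin beta A subunit, which pairs with itself to form activin A, a secreted ligand that binds type II and type I serine/threonine kinase receptors and signals through SMAD proteins. Nptx2 encodes neuronal pentraxin 2, also called NARP, a secreted protein that clusters AMPA receptors at excitatory synapses. Both are known as genes that neuronal activity induces. Hectd2 encodes a ubiquitin ligase of the HECT family, which passes ubiquitin to its substrates through a cysteine of the HECT domain. Slc27a3 encodes fatty acid transport protein 3, a member of the SLC27 family, which has acyl-CoA synthetase activity.

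In the tables, which use the mm10 build, Inhba lies at chr13:16014475-16027211 on the plus strand, Nptx2 at chr5:144545887-144557478 on the plus strand, Hectd2 at chr19:36554639-36621135 on the plus strand and Slc27a3 at chr3:90385233-90389927 on the minus strand. The Inhba entry has the same ends as the transcript Inhba-202 of GENCODE M21, with 3 exons and 1529 exon bases, 1272 of them coding. The longer transcript Inhba-201, from 16011851 to 16031621, has 5 exons and 6390 exon bases, and the entry of the tables covers neither its first exon nor its long 3′ end. Nptx2 has 5 exons and 2536 exon bases, Hectd2-201 has 21 exons and 4731, and Slc27a3-201 has 10 exons and 2259. Hectd2 shares 1718 bases with 1500017E21Rik on the opposite strand, whose value was at most 0.570 TPM in any library. The nearest gene to Slc27a3 is Ints3, 1453 bases away, at 48.5 to 66.5 TPM.

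RefSeq promoter windows of 300 bases around the annotated start in GRCm38.p6, the last 50 of them after it, were read for Inhba and Slc27a3. They are shown because they are the 2 members that the RefSeq table used here matched. A link between their letters and the running differences was not tested. Capitals mark the matches to the core motifs searched, a TATA box (TATAAA) and a GC box (GGGCGG), on either strand. The window of Inhba, chr13:16011601-16011900 on the plus strand, belongs to the upstream start of Inhba-201, and that of Slc27a3, chr3:90389889-90390188, is on the minus strand.
Inhba: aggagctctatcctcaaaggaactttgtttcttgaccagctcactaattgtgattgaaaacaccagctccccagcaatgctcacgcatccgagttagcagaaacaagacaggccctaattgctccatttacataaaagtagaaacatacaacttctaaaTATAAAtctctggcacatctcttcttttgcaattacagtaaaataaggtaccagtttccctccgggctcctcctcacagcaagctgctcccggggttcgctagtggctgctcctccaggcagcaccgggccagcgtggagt
Slc27a3: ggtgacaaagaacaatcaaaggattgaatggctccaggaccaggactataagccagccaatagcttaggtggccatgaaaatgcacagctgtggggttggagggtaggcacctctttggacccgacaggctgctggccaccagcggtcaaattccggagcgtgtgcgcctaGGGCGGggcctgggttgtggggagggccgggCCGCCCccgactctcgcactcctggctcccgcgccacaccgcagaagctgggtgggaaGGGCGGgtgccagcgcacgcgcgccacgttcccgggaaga

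The window of Inhba holds 1 TATAAA, at position -91, a motif found in 13.6% of the 32851 windows of this length. That of Slc27a3 holds 3 GC boxes, at positions -79, -48 and 11, the one at -48 on the other strand, and a GC box is found in 35.7% of windows. The 300 bases of Inhba are 47.7% G and C and those of Slc27a3 64.3%, against a median of 52.7% over all windows. Neither window holds the cAMP response element TGACGTCA (1.79% of windows), its core TGACG (20.8%), the AP-1 motif TGANTCA (7.81%) or the E-box CACGTG (7.15%), searched on both strands. TGACG is part of TGACGTCA. A match is a description of the letters in the window and not a bound site.

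Levels are given as TPM, the StringTie abundance per gene corrected for length and for the total of the library. Differences are of mean log2 values after adding 0.1 TPM, with libraries scaled to a common median ratio, and are given with the standard error (SE) of limma, a linear model that moderates variances across genes. As in the study's notation, Set A is p16 KO RUN against p16 KO CTL, Set C is p16 WT RUN against p16 WT CTL, Set B is p16 KO CTL against p16 WT CTL and Set E is p16 KO RUN against p16 WT RUN. The tables hold no read counts. The median coverage per base over the 16 libraries was 27.0 for Inhba, 80.7 for Nptx2, 97.7 for Hectd2 and 46.6 for Slc27a3, with a range of 12.0 to 57.0 for Inhba.

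Inhba, the activin ligand subunit, was low in sedentary mice and about 3 times as high in runners of both genotypes. Its values were 4.72, 5.26, 4.65 and 7.40 TPM in p16 WT CTL (5.51 ± 1.29, SD, n = 4) and 5.81, 6.79, 6.74 and 5.36 TPM in p16 KO CTL (6.18 ± 0.706, SD, n = 4). In p16 WT RUN they were 9.27, 25.3, 10.2 and 21.6 TPM (16.6 ± 8.06, SD, n = 4). In p16 KO RUN they were 16.4, 24.1, 15.5 and 19.3 TPM (18.8 ± 3.85, SD, n = 4). All 8 running libraries lay above all 8 sedentary ones, and p16 WT RUN fell into a pair of libraries near 10 TPM (replicates 9 and 11) and a pair above 20 TPM (replicates 10 and 12). The log2 difference was 1.51 (SE 0.16) in Set A and 1.45 (SE 0.34) in Set C, ratios of mean TPM of 3.04 and 3.01. By mean level p16 WT CTL was the lowest, p16 KO RUN was the highest, and p16 KO CTL lay below p16 WT RUN, with overlapping values between the sedentary groups and between the running groups, and none between p16 KO CTL and p16 WT RUN.

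Nptx2, the secreted organiser of AMPA receptor clusters, followed the same order of groups at about 3 times the level of Inhba in sedentary mice. It was measured at 12.4, 17.7, 20.1 and 12.6 TPM in p16 WT CTL (15.7 ± 3.82, SD, n = 4) and at 17.6, 13.9, 20.0 and 19.3 TPM in p16 KO CTL (17.7 ± 2.73, SD, n = 4). The runners had 25.9, 59.0, 29.4 and 39.9 TPM in p16 WT RUN (38.5 ± 14.9, SD, n = 4). In p16 KO RUN the values were 37.5, 61.4, 47.5 and 44.3 TPM (47.7 ± 10.0, SD, n = 4). Here too no running library overlapped a sedentary one, and replicates 10 and 12 were the higher pair of p16 WT RUN. The log2 difference was 1.35 (SE 0.17) in Set A and 1.24 (SE 0.27) in Set C, with ratios of mean TPM of 2.69 and 2.46.

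Hectd2, the HECT ubiquitin ligase, was more than doubled in mean TPM by either comparison, but 1 sedentary library reached into the wild-type runners. The p16 WT CTL libraries had 18.0, 14.7, 22.2 and 33.0 TPM (22.0 ± 7.95, SD, n = 4). Those of p16 KO CTL had 22.6, 17.8, 19.7 and 22.7 TPM (20.7 ± 2.39, SD, n = 4). Replicate 4 of p16 WT CTL, at 33.0 TPM, lay above replicate 9 of p16 WT RUN. Values in p16 WT RUN were 30.7, 62.0, 43.8 and 61.2 TPM (49.4 ± 15.0, SD, n = 4). Values in p16 KO RUN were 39.6, 48.4, 51.8 and 50.9 TPM (47.7 ± 5.58, SD, n = 4) and stood clear of p16 KO CTL. The log2 difference was 1.13 (SE 0.10) in Set A and 1.16 (SE 0.28) in Set C, with ratios of mean TPM of 2.30 and 2.25. The sedentary groups overlapped each other, as did the running groups, so that neither genotype stood above the other.

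Slc27a3, the fatty acid transport protein, differed from the other members in that its mean was doubled in knockout runners and only 1.30 times as high in wild-type runners. In p16 WT CTL it had 12.2, 10.6, 13.3 and 19.7 TPM (14.0 ± 3.97, SD, n = 4), with replicate 4 again the highest. In p16 KO CTL it had 12.2, 9.21, 9.99 and 9.37 TPM (10.2 ± 1.40, SD, n = 4), the lowest mean of the 4 groups. The wild-type runners had 15.0, 23.8, 14.4 and 19.2 TPM (18.1 ± 4.36, SD, n = 4), of which 3 lay below replicate 4 of p16 WT CTL. The knockout runners had 19.2, 22.2, 20.5 and 20.0 TPM (20.5 ± 1.27, SD, n = 4), a narrow range that did not overlap p16 KO CTL. The log2 difference was 0.94 (SE 0.098) in Set A and 0.37 (SE 0.21) in Set C, and the difference between these was 0.57 (SE 0.24). A larger difference between Set A and Set C was found in 9.49% of the 17317 tested genes. Without replicate 4 of p16 WT CTL the log2 difference in Set C was 0.54, and without replicate 10 of p16 WT RUN it was 0.22. For Inhba, Nptx2 and Hectd2 the difference between Set A and Set C was 0.061 (SE 0.40), 0.11 (SE 0.35) and -0.032 (SE 0.32). Since the genes were chosen on these contrasts, no test was made of them.

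**Figure D1:**
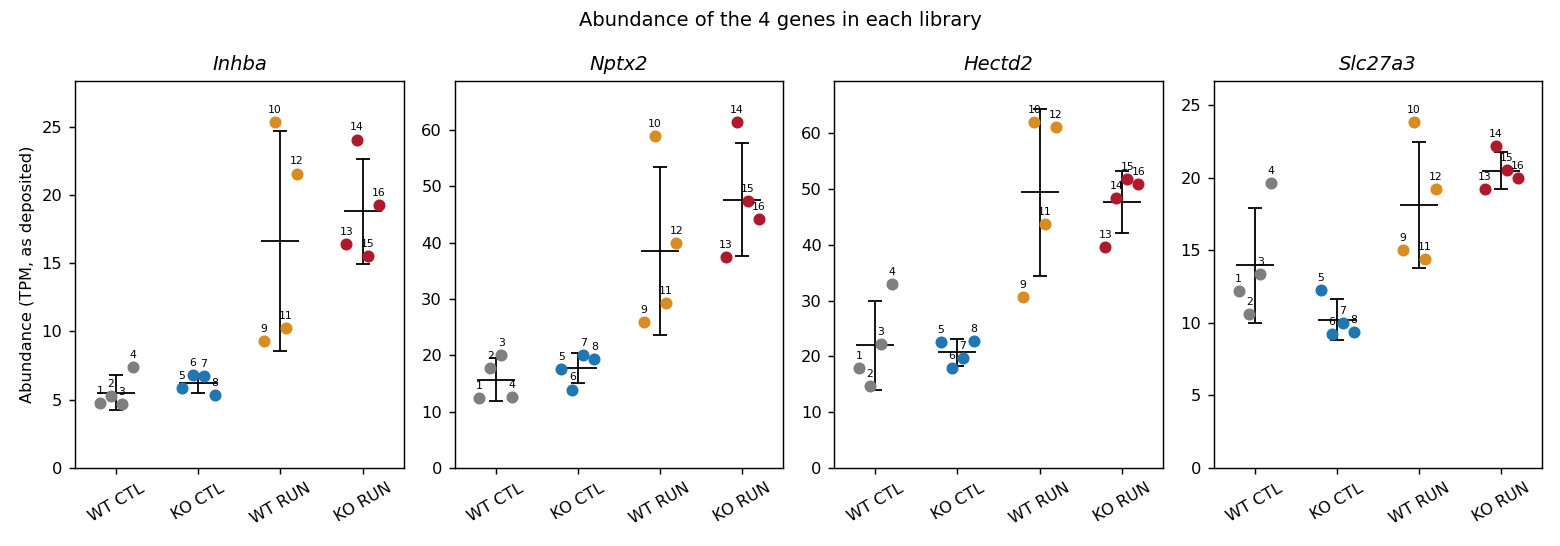
Abundance in TPM, as deposited, of Inhba, Nptx2, Hectd2 and Slc27a3 (vertical axes, from 0) in the 4 libraries of each group (horizontal axis, numbers are replicates). Horizontal bars are means and vertical bars the SD over 4 libraries. In Inhba and Nptx2 every running library lies above every sedentary one, whereas in Slc27a3 replicate 4 of p16 WT CTL, at 19.7 TPM, lies among the wild-type runners.

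On the scaled values, groups that did not overlap, with running higher, were found for 4 of 4 members in Set A, where 5.83% of the 17317 tested genes show this, and for Inhba and Nptx2 in Set C, where 2.02% do. With all 8 running libraries against all 8 sedentary ones it held for Inhba and Nptx2, and for 0.312% of tested genes. Inhba, Nptx2 and Hectd2 were among the 50 genes (0.289%) with log2 differences above 1 in both sets, and Slc27a3 was not. These shares are background to a choice made on the same contrasts, and nothing is read from them. By the log2 difference Inhba was the 179th of the tested genes in Set A and the 52nd in Set C, Nptx2 the 270th and the 84th, Hectd2 the 459th and the 99th, and Slc27a3 the 741st and the 1154th.

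In p16 WT RUN the same libraries were the higher ones for each member, which did not hold in the other groups. Replicates 10 and 12 were above replicates 9 and 11 in each of the 4 genes, and the standard errors of Set C, 0.21 to 0.34, were larger than those of Set A, 0.098 to 0.17. The score of nuclear noncoding RNAs, the mean centred log2 level of 10 such RNAs, was 0.31 and 0.41 in replicates 10 and 12 against 0.079 and 0.14 in replicates 9 and 11. The summed TPM of the dentate granule neuron markers was 1002 and 1157 in the former against 1369 and 1398 in the latter. That of the CA1 markers was 161 and 106 against 94.5 and 102. Relative coverage, the coverage per base of a library set against the other libraries, was 0.62 and 0.88 against 0.72 and 0.77. The part of these in the spread was not tested, and the distance run by the mice of each library is not used here. In p16 WT CTL, replicate 4 was the highest library for Inhba, Hectd2 and Slc27a3 and the second lowest for Nptx2, at 12.6 TPM. In p16 KO CTL, replicate 6 was the highest library for Inhba (6.79 TPM) and the lowest for Nptx2 (13.9 TPM), Hectd2 (17.8 TPM) and Slc27a3 (9.21 TPM). In p16 KO RUN, replicate 15 was the lowest for Inhba (15.5 TPM) and the highest for Hectd2 (51.8 TPM). Replicate 14 of that group was the highest for Inhba, Nptx2 and Slc27a3 but not for Hectd2. Its CA1 markers summed to 141 TPM, against 86.6 to 92.8 TPM in the rest of the group, and their part was not tested. The coefficient of variation was lower in p16 KO RUN than in p16 WT RUN for each member, from 6.20% (Slc27a3) to 21.1% (Nptx2) against 24.0% (Slc27a3) to 48.6% (Inhba).

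The libraries also differed in depth and in nuclear RNA. Relative coverage was 0.62 to 0.89 in the 8 running libraries and 0.90 to 1.95 in the 8 sedentary ones, without overlap. Depth and running thus cannot be told apart here. Replicates 2, 6 and 7, all sedentary, had nuclear RNA scores of -0.59, -1.27 and -1.37, while the other 13 libraries lay between 0.079 and 0.41, and replicates 2 and 7 had the highest relative coverage, 1.95 and 1.68. Without these 3 libraries the log2 differences of Set A were 1.69 for Inhba, 1.32 for Nptx2, 1.04 for Hectd2 and 0.91 for Slc27a3, and those of Set C were 1.46, 1.33, 1.02 and 0.28. The value that moved most in proportion was that of Slc27a3 in Set C, from 0.37 to 0.28. The 10 granule neuron markers were present in all 16 libraries (Prox1 at 58.1 to 187 TPM, C1ql2 at 199 to 610 TPM), with summed levels of 615 to 1573 TPM in sedentary and 1002 to 1570 TPM in running libraries. Their differences were positive for 8 of 10, with a median of 0.18 on the log2 scale and a smallest limma adjusted p of 0.0661. Replicate 8 of p16 KO CTL had the lowest granule neuron sum of the 16 libraries, 615 TPM, and the highest sum of CA1 markers, 263 TPM, where the other libraries of its group had 91.0 to 113 TPM. Without it the log2 differences of Set A were 1.44 for Inhba, 1.39 for Nptx2, 1.17 for Hectd2 and 0.90 for Slc27a3. Of 85 tested markers of 12 cell types and tissues, 0 changed with running at an adjusted p under 0.05 of limma and 20 had an unadjusted p under 0.05, which 17.9% of the 17317 tested genes had. The choroid plexus markers summed to 26.8 to 213 TPM in sedentary and 16.9 to 62.9 TPM in running libraries, the endothelium markers to 64.1 to 128 and 110 to 163 TPM. The choroid plexus sum of 213 TPM was that of replicate 7 of p16 KO CTL, and the next highest sedentary one was 53.1 TPM (replicate 1 of p16 WT CTL). Differences were positive for 6 of 6 endothelium markers, and negative for 7 of 7 oligodendrocyte, 7 of 7 microglia, 7 of 7 choroid plexus and 6 of 7 astrocyte markers, with list medians of 0.28, -0.14, -0.19, -0.21 and -0.13 on the log2 scale. The summed levels of the glial lists were 1019 to 2507 TPM in sedentary and 1184 to 1840 TPM in running libraries for oligodendrocytes, 299 to 435 and 273 to 337 TPM for microglia, and 1375 to 2175 and 1423 to 1906 TPM for astrocytes. Their part in the differences of the members was not tested. In such bulk tissue, more cells that express a gene and more of its RNA per cell cannot be told apart.

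The genotype was compared over all 16 libraries, as the mean of both p16 KO groups minus that of both p16 WT groups. This contrast is orthogonal to the running contrasts that chose the genes and is the one that was tested. Averaged over sedentary and running libraries, no member passed this test. The log2 difference was 0.27 for Inhba (SE 0.20, limma adjusted p = 0.701, exact two-sided permutation p = 0.229 over 4900 splits within sedentary and within running libraries). It was 0.31 for Nptx2 (SE 0.17, limma adjusted p = 0.674, exact permutation p = 0.120). For Hectd2 it was 0.020 (SE 0.16, limma adjusted p = 0.977, exact permutation p = 0.910) and for Slc27a3 -0.073 (SE 0.12, limma adjusted p = 0.859, exact permutation p = 0.648). When 1 library was left out in turn, Inhba lay between 0.15 (without replicate 9) and 0.40 (without replicate 10), with 0.18 without replicate 11, and Nptx2 between 0.22 and 0.43. The signs of Hectd2 and Slc27a3 were not stable, since Hectd2 lay between -0.087 and 0.12 and Slc27a3 between -0.13 and 0.0091 in the same fits. Over all 17317 genes, 0 differed at an adjusted p under 0.05 by limma and 1233 (7.12%) at an unadjusted p under 0.05.

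Within sedentary mice (Set B) the log2 difference, knockout minus wild-type, was 0.24 (SE 0.18) for Inhba, 0.25 (SE 0.19) for Nptx2, 0.036 (SE 0.20) for Hectd2 and -0.36 (SE 0.17) for Slc27a3. Within runners (Set E) it was 0.30 (SE 0.33), 0.37 (SE 0.26), 0.0039 (SE 0.22) and 0.21 (SE 0.16). Both share libraries with the running contrasts and are given without a test. Neither set was refitted with 1 library left out, but single wild-type libraries moved Set C. There Inhba went from 1.45 to 1.69 without replicate 9 and to 1.19 without replicate 10, libraries that Set E also uses. Slc27a3 went from 0.37 to 0.22 without replicate 10, and to 0.54 without replicate 4, which Set B also uses. Slc27a3 had opposite signs in Set B and Set E, which the average over running offsets. In sedentary mice the knockout library was the higher one in 2 of the 16 possible pairs of a knockout and a wild-type library, and in runners in 11 of 16.

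**Figure D2:**
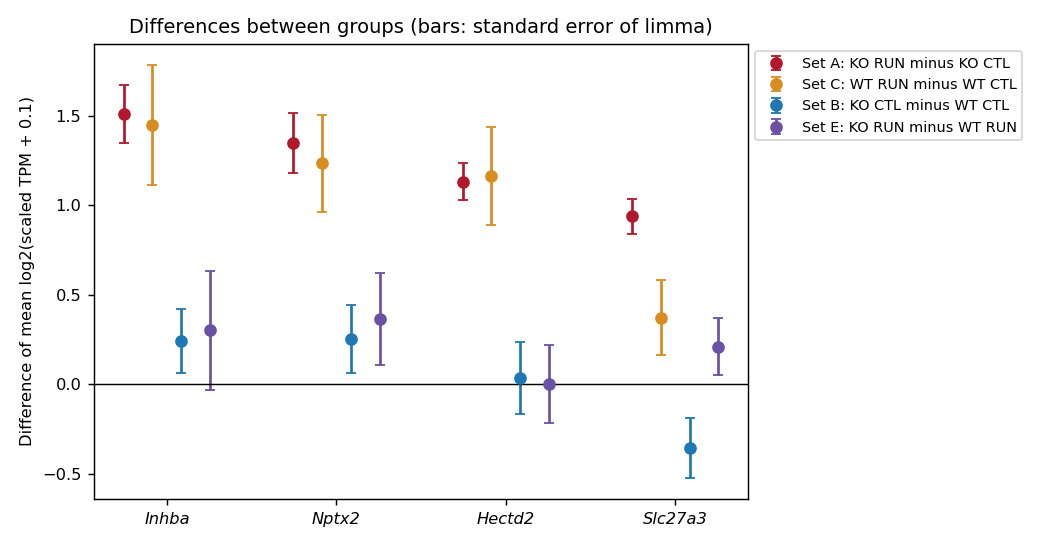
Differences of mean log2(scaled TPM + 0.1) for the 4 genes (horizontal axis) in 4 comparisons of 4 against 4 libraries, with bars for the standard error of limma. The running differences of Inhba, Nptx2 and Hectd2 lie between 1.13 and 1.51 in both genotypes, while Slc27a3 has 0.94 in Set A, 0.37 in Set C and -0.36 in Set B.

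The genes around each member were followed in lists of its pathway or family that did not include the members, by the difference between running and sedentary libraries averaged over the genotypes. Earlier results of these data were known when the lists were chosen. Their counts below, also those of the early and late activity lists, are therefore not independent support for the members. Over all 17317 genes, 103 (0.595%) rose and 27 (0.156%) fell at an adjusted p under 0.05 of limma, and the median log2 difference was 0.013. At an unadjusted p under 0.05 the share was 17.9%, 9.87% higher and 8.02% lower. Of the 132 tested genes in 6 lists, 9 rose and 0 fell. These calls were lost when replicates 2, 6 and 7 were left out, a choice made after seeing the data. No gene of the whole table was called in that fit, and the 9 genes had log2 differences of 0.27 to 1.51 with adjusted p of 0.0727 to 0.252. With the nuclear RNA score as a covariate Atf3 alone of the 9 passed (limma adjusted p = 0.0203). The rest had log2 differences of 0.28 (Egr3) to 1.43 (Fst) in that fit, with limma adjusted p of 0.0621 to 0.174.

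In the activin pathway 4 of 22 tested genes rose and 0 fell, with a median log2 difference of 0.055. At an unadjusted p under 0.05 6 were higher and 2 lower, where 9.87% of all tested genes were higher and 8.02% lower. The 4 that rose at an adjusted p under 0.05 were an antagonist, 2 receptors and a SMAD corepressor. Fst encodes follistatin, the secreted protein that binds activin and blocks it. It was at 0.775 to 3.77 TPM in p16 WT CTL, 1.99 to 4.78 TPM in p16 KO CTL, 3.72 to 10.7 TPM in p16 WT RUN and 6.42 to 12.2 TPM in p16 KO RUN. The knockout groups did not overlap whereas the wild-type groups did. Groups without overlap, with running higher, were found for 5.83% of tested genes in Set A and 2.02% in Set C. The log2 difference of Fst was 1.37 (SE 0.29) in Set A and 1.54 (SE 0.50) in Set C. Averaged over the genotypes Fst rose by 1.46 (SE 0.31, limma adjusted p = 0.0454) on the log2 scale. This call held in 6 of 16 fits without 1 library (without replicate 3, 4, 5, 9, 11 or 13). Acvr1c encodes ALK7, a type I receptor of activin B and related ligands. It was at 13.0 to 18.4 TPM in sedentary and 22.8 to 38.3 TPM in running libraries and rose by 0.89 (SE 0.12, limma adjusted p = 0.00688). Acvr1, which encodes the type I receptor ALK2, was at 40.4 to 49.3 TPM in sedentary and 49.8 to 64.6 TPM in running libraries and rose by 0.32 (SE 0.054, limma adjusted p = 0.0181). Skil encodes SnoN, a corepressor that binds SMAD proteins, and rose by 0.60 (SE 0.11, limma adjusted p = 0.0186), from 27.3 to 41.8 TPM in sedentary to 45.5 to 69.6 TPM in running libraries. In Acvr1c, Acvr1 and Skil all 8 running libraries lay above all 8 sedentary ones, which 0.312% of tested genes show. Their calls held in each of the 16 fits without 1 library. With no filter on low values Skil stayed at 0.60 but lost its call (limma adjusted p = 0.0507), as did Fst (limma adjusted p = 0.0943).

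Other genes of the pathway did not pass. Inhbb, the beta B subunit that forms activin B, had a log2 difference of -0.42 (SE 0.11, limma adjusted p = 0.0859), from 3.42 ± 0.601 TPM (SD, n = 8) in sedentary to 2.59 ± 0.269 TPM (SD, n = 8) in running libraries. Acvr1b, the main type I activin receptor ALK4, had 93.5 ± 10.2 TPM in sedentary and 98.6 ± 5.08 TPM in running libraries (limma adjusted p = 0.648). The type II receptor gene Acvr2a had 36.8 ± 9.18 and 43.3 ± 5.68 TPM (limma adjusted p = 0.309). Fstl3, a follistatin relative, was at 1.75 ± 0.642 and 1.55 ± 0.522 TPM (limma adjusted p = 0.694).

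**Figure D3:**
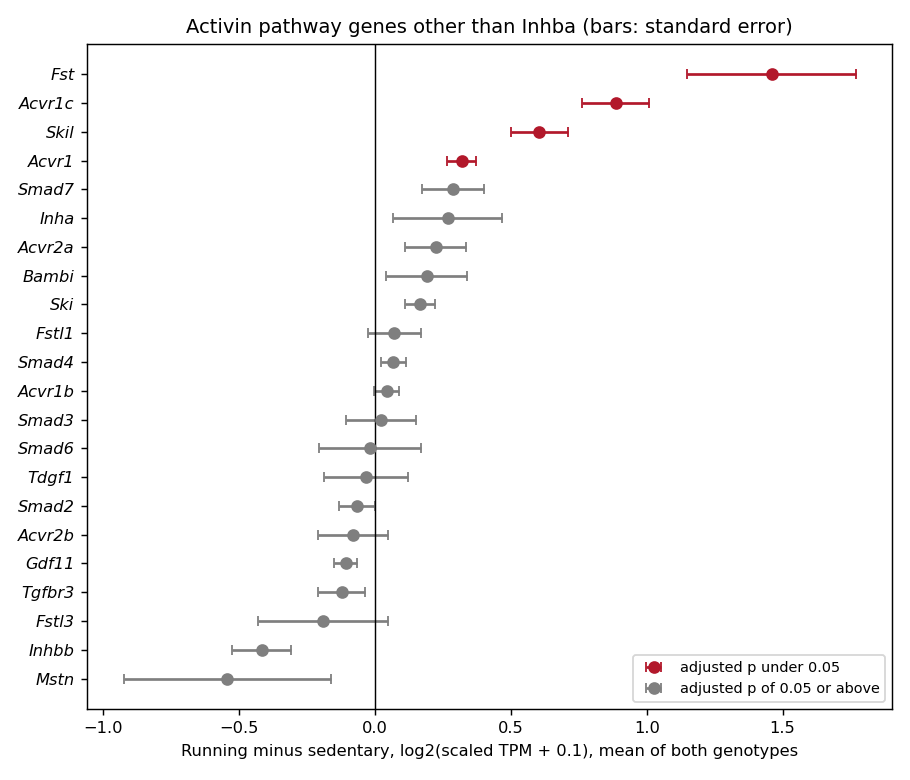
Difference between running and sedentary libraries, as log2(scaled TPM + 0.1) averaged over both genotypes (horizontal axis), for the 22 tested activin pathway genes other than Inhba, with bars for the standard error of limma. Fst (1.46), Acvr1c (0.89), Skil (0.60) and Acvr1 (0.32) passed an adjusted p of 0.05, and Inhbb (-0.42) did not.

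Among the pentraxins and AMPA receptor partners of Nptx2, 0 of 18 tested genes changed at an adjusted p under 0.05 of limma, 3 had an unadjusted p under 0.05, a share near the 17.9% of all tested genes, and the median log2 difference was 0.052. Nptx1, the paralogue with which it forms mixed complexes, was at 740 ± 55.1 TPM in sedentary and 736 ± 35.4 TPM in running libraries (SD, n = 8 each, limma adjusted p = 0.610). Nptxr, the membrane-bound pentraxin receptor, was at 996 ± 92.9 and 1134 ± 132 TPM (limma adjusted p = 0.384). Gria4, an AMPA receptor subunit that pentraxins cluster on interneurons, was at 35.0 ± 3.81 and 37.0 ± 3.10 TPM (limma adjusted p = 0.764). The smallest p belonged to Cnih3, an auxiliary AMPA receptor subunit, at 82.3 ± 18.8 and 125 ± 23.6 TPM (log2 difference 0.58, SE 0.15, limma adjusted p = 0.0762), and to Adam17, which encodes the protease that cleaves the pentraxin receptor (0.15, SE 0.066, limma adjusted p = 0.263).

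Among the HECT ubiquitin ligases other than Hectd2, 0 of 24 tested genes changed at an adjusted p under 0.05 of limma, 9 had an unadjusted p under 0.05, 8 of them higher and 1 lower (9.87% and 8.02% of all tested genes), and the median was 0.065. Wwp2 had the smallest p, with 26.0 ± 1.97 TPM in sedentary and 23.1 ± 1.25 TPM in running libraries (SD, n = 8 each, log2 difference -0.20, SE 0.051, limma adjusted p = 0.0771), followed by Herc3, with 104 ± 7.03 and 120 ± 6.64 TPM (0.16, SE 0.044, limma adjusted p = 0.10).

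Around Slc27a3 the list held SLC27 and acyl-CoA synthetase genes, fatty acid binding proteins, carnitine palmitoyltransferases and the fatty acid receptor gene Cd36. In it 0 of 18 tested genes changed at an adjusted p under 0.05 of limma, 1 had an unadjusted p under 0.05, against 17.9% of all tested genes, and the median was -0.014. Slc27a1, a fatty acid transport protein, was at 88.1 ± 14.0 TPM in sedentary and 98.2 ± 6.82 TPM in running libraries (SD, n = 8 each, limma adjusted p = 0.320). Slc27a4, another, was at 59.8 ± 2.88 and 63.2 ± 3.37 TPM (limma adjusted p = 0.686). Fabp5, a cytosolic fatty acid binding protein, had the smallest p, at 187 ± 23.6 and 167 ± 11.2 TPM (log2 difference -0.20, SE 0.085, limma adjusted p = 0.247).

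Genes that neuronal activity induces were followed in an early and a late list. Of 25 tested immediate early genes 3 rose and 0 fell, with a median log2 difference of -0.052. At an unadjusted p under 0.05 4 were higher and 1 lower. These 5 of 25 are a share near the 17.9% of all tested genes. Atf3, a stress-induced transcription factor, rose by 1.16 (SE 0.16, limma adjusted p = 0.00688), from 1.55 ± 0.323 to 3.72 ± 0.974 TPM (SD, n = 8 each). No running library overlapped a sedentary one, which 0.312% of tested genes show with running higher. Fosl2, an AP-1 subunit, rose by 0.54 (SE 0.099, limma adjusted p = 0.0219) and Egr3, a zinc finger factor, by 0.29 (SE 0.058, limma adjusted p = 0.0390). The call of Fosl2 held in 10 of the 16 fits without 1 library and was lost without replicate 6, 7, 10, 12, 14 or 15. That of Egr3 held in 5 (without replicate 3, 5, 12, 13 or 16). Fos did not pass, at 13.3 ± 7.82 and 10.8 ± 4.82 TPM (limma adjusted p = 0.692). Nor did Arc, the synaptic activity gene, at 70.1 ± 33.8 and 81.5 ± 32.6 TPM (limma adjusted p = 0.761).

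Of 26 tested late activity-induced genes 3 rose and 0 fell, and 13 had an unadjusted p under 0.05, all of them with positive differences, where 9.87% of all tested genes were higher and 8.02% lower at that threshold. The median log2 difference was 0.18. Acvr1c, which is also in the activin list, was one of them. Bdnf, the neurotrophin, rose by 0.44 (SE 0.075, limma adjusted p = 0.0181), from 41.4 to 57.4 TPM in sedentary to 59.9 to 76.6 TPM in running libraries. These ranges did not overlap, which 0.312% of tested genes show with running higher. Dnajb5, a heat shock protein cofactor, rose by 0.36 (SE 0.058, limma adjusted p = 0.0130), from 154 ± 20.3 to 202 ± 10.7 TPM (SD, n = 8 each). The calls of Atf3, Bdnf and Dnajb5 held in each of the 16 fits without 1 library.

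**Figure D4:**
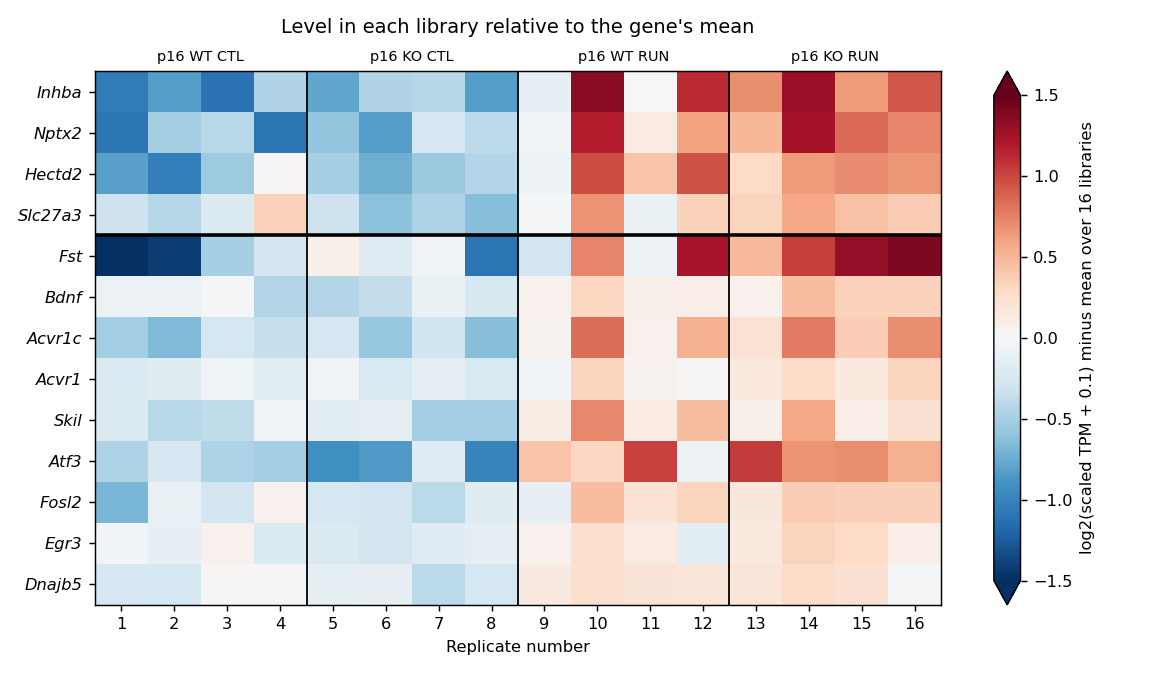
Level of the 4 members (above the line) and of the 9 list genes that passed an adjusted p of 0.05 (below it) in each of the 16 libraries (columns, by replicate number and group), as log2(scaled TPM + 0.1) minus the gene's mean. Red is above and blue below the mean, and the colour scale is capped at the ends shown beside it. Replicates 10, 12 and 14 are the darkest in Inhba, and replicates 9 and 11 are the palest running libraries of Inhba, Nptx2 and Slc27a3.

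The likeness of a gene to a member was taken as the mean absolute difference of their log2 values over the 16 libraries after each was centred on its own mean. These points share the libraries, their depth and the 4 groups, and the values are a description. Inhba was most like Pmepa1 (0.24), Prlr (0.24) and Nptx2 (0.27), where the median over all genes was 0.78. Nptx2 was most like Pmepa1 (0.23), Serinc2 (0.23) and Trib2 (0.24), where the median was 0.67. For Hectd2 the nearest were Pmepa1 (0.20), Cacna1g (0.23) and Acvr1c (0.24), with a median of 0.61. Pmepa1, the gene closest to each of these 3 members, was at 13.8 ± 1.58 TPM in sedentary and 29.8 ± 9.45 TPM in running libraries (SD, n = 8 each). The nearest genes of Slc27a3 were Plbd2 (0.15), Slc25a42 (0.15) and 9130019P16Rik (0.16), with a median of 0.42, and Hectd2 came 473rd, Nptx2 4702nd and Inhba 11345th in its order. In the orders of the others Slc27a3 came 15th for Hectd2 (0.28), 34th for Nptx2 (0.37) and 41st for Inhba (0.45).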

How the data were processed

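Total RNA of the dentate gyrus was made into 16 libraries with an mRNA kit, each from 2 mice. Per the labels and the paper's methods, the authors used STAR for alignment to mm10 and StringTie for abundances. The deposited TPM values are StringTie abundances per gene. The deposited FPKM values come from the same runs, and the deposited coverage values are the mean coverage per base. FPKM is proportional to TPM within a library. Read counts are not in these tables, so counting error per gene is unknown, and limma replaced the count test of the authors.

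Where a name had several entries their TPM were added up (112 to 130 names in a library, 24421 names in all). Libraries were put on one scale through the median ratio to their mean, taken from the 13226 genes that reached 1 TPM everywhere. Genes averaging 0.1 TPM or more, 17317 in all, entered fits of log2(scaled TPM + 0.1) by limma (version 3.58.1, R 4.3.3), with a variance trend and Benjamini-Hochberg adjustment over all of them. Sets A, B, C and E used the 8 libraries of their groups, and averages over genotype or running used 16. The procedure was tested on simulated data.

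The members and lists were chosen with earlier results of these data known. Named were the members, the nearest gene to Hectd2 and to Slc27a3 in the genome, and the genes past an adjusted p of 0.05 in each list (or the 2 of smallest p). Fixed close partners and the 3 genes most like each member were named as well. One of the fixed partners is not reported here. Alternatives were other filters, pseudocounts and scalings, FPKM, the highest entry per name, a nuclear RNA covariate, no variance trend, all libraries in one fit, and leaving out each library. Promoter windows are from RefSeq (GRCm38.p6), which matched 2 of the 4 members. Gene models are from GENCODE M21, and 99.5% of 23283 shared names overlapped in position.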

Additional observations from a re-analysis of the deposited data

Results flagged for a closer look

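In 13 genes and 4 groups each, 52 sets of 4 libraries in all, the most extreme library was compared with the rest by the gap to its nearest neighbour, a check that chance passes in about 1 in 20 sets. No member was among the 4 that passed. Bdnf in p16 WT RUN was 70.4 TPM in replicate 10, where the others had 60.4 to 61.3 TPM. Acvr1 in p16 KO CTL was 49.3 TPM in replicate 5, where the others had 40.4 to 41.7 TPM. Atf3 in p16 KO CTL was 1.89 TPM in replicate 7, where the others had 1.10 to 1.22 TPM. Fosl2 in p16 KO RUN was 39.2 TPM in replicate 13, where the others had 43.9 to 44.5 TPM.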

How the results depend on the processing

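No paired analysis was possible because the groups share no replicate number. The running differences of the 4 members kept their direction, and moved by less than 1 SD between replicates, in each alternative run in Set A and Set C. In the genotype average, Hectd2 was -0.014 with TPM as deposited and -0.0076 without replicates 2, 6 and 7. Leaving out 1 library gave -0.087 to 0.12 for Hectd2 (negative without replicate 1, 2, 8, 9, 11 or 15: -0.017, -0.053, -0.00039, -0.087, -0.0038 and -0.0016) and -0.13 to 0.0091 for Slc27a3 (positive without replicate 4 or 10: 0.0091 and 0.0018). No adjusted p of a member passed 0.05 in any of these fits. The count of activin pathway genes was 2 with no filter, 0 with the nuclear RNA covariate and 0 without replicates 2, 6 and 7, and 3 to 5 without 1 library. That of immediate early genes was 1, 1 and 0 in the same settings and 1 to 4 without 1 library (1 without replicate 6, 7, 10, 14 or 15). That of late activity-induced genes was 6 with TPM as deposited, 5 with quantile normalization, 0 with the covariate and 0 without replicates 2, 6 and 7, and 3 to 4 without 1 library. That of HECT ligases was 1 with TPM as deposited (Herc3) and 0 to 1 without 1 library (1 without replicate 3 or 5), and that of pentraxins and AMPA receptor partners 0 to 1 (1 without replicate 5). Over all genes 130 were called, against 59 with no filter, 201 with TPM as deposited, 68 with no variance trend, 5 with the covariate, 0 without replicates 2, 6 and 7, and 38 to 416 without 1 library (38 without replicate 6 or 14, 416 without replicate 5). Acvr1b turned to -0.0038 without replicates 2, 6 and 7 and Nptx1 to 0.047 with quantile normalization. The fit without replicates 2, 6 and 7 has fewer samples, while the fit with the covariate keeps all 16 libraries. The cause of the shifts in these and the other settings was not tested. The median of all genes moved by less than 0.1 under each scaling.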
